A study of Mus musculus with 12 samples.

Results

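The genes described here are 28 genes of sterol and fatty acid synthesis, chosen by name, out of 56941 genes in the deposited table. They comprise 6 enzymes of the mevalonate and isoprenoid steps, 11 enzymes of squalene and sterol synthesis, 4 genes of the SREBP system, 6 enzymes of fatty acid synthesis and the sterol transfer protein Stard4. All 28 were found by symbol, and all 28 passed the filter on low counts in both fits. The study measured RNA in C2C12 cells, mouse myoblasts that fuse into myotubes when the serum is changed. The ChR2 group was 6 wells of the ChR2::tdTomato line, an optogenetic line that carries a light-gated channel with a red fluorescent protein. The wild-type group was 6 wells of a wild-type C2C12 line. Wells of both lines were plated on a fibrin gel, grown there for 2 days with aminocaproic acid in the medium, and then held for 6 days in a differentiation medium that held IGF-1, aminocaproic acid and horse serum. The labels mention no light stimulation of these wells, name no promoter for the transgene, and do not say whether either line is 1 clone. A search of the gene symbols for tdTomato and ChR2 found 0 rows, so the transgene was not analysed here. Whether the wells were independently grown is not labelled. The p-values then measure the spread between these wells, which may be technical, and the history of a line and its transgene cannot be told apart.

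Cholesterol is built from acetyl-CoA through mevalonate, isoprenoid diphosphates, squalene and lanosterol, and the last enzymes turn lanosterol into cholesterol on the endoplasmic reticulum. When sterols in that membrane are low, the carrier Scap moves the SREBP precursors, encoded by Srebf1 and Srebf2, to the Golgi, where proteases free the active factors, which raise the transcription of most enzymes of both pathways; Insig proteins hold the complex back when sterols are plentiful. In muscle cells the same routes supply the membrane of fusing myotubes, the prenyl groups of small GTPases and the lipids of the sarcoplasmic reticulum.

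Libraries of the 6 ChR2 wells held 7388760 to 12229500 estimated counts, against 10268100 to 13628600 in wild-type wells 1, 3, 4 and 6. Wild-type wells 2 and 5 stood apart with 1061070 and 2809670 counts, of which 24.8% and 8.37% came from the 7SL RNAs that have no poly(A) tail; in each of the other 10 libraries that share was at most 0.0341%. Fold changes are therefore given over all 12 libraries and again over the 10 libraries without those wells. All 7 myotube markers were detected. Their summed level was 9381 to 11211 CPM (counts scaled to library size) in ChR2 wells and 7287 to 13343 CPM in wild-type wells. Myog and Des fell over 12 libraries and Myog and Mymk over 10. Myh3, Ckm, Acta1 and Tnnt3 had an adjusted p above 0.05 in both fits. Their log2 fold changes, ChR2 over wild type, were 0.58, 0.50, 0.19 and 0.41 over 12 libraries. Over 10 they were 0.45, 0.47, 0.11 and -0.02. The 5 hepatocyte markers were at 0 in every library. Of 8 adipocyte markers, Pparg and Cebpa were testable, the others reached too few counts for a test, and the sum of all 8 was 13.7 to 19.0 CPM in ChR2 wells and 9.09 to 21.0 CPM in wild-type wells. Pparg, the adipogenic nuclear receptor, rose in both fits. It averaged 9.57 ± 1.25 CPM in ChR2 wells and 5.84 ± 1.01 CPM in wild-type wells 1, 3, 4 and 6 (SD). Cebpa had log2 fold changes of -0.44 over 12 libraries and -0.16 over 10, with an adjusted p above 0.05 in both. Of 6 fibroblast markers, Col3a1 and Pdgfrb rose in both fits. Dcn, Col1a1 and Pdgfra passed in neither, with log2 fold changes of 0.62, -0.19 and -0.27 over 12 libraries. Over 10 they were 0.38, 0.23 and -0.01. Lum reached too few counts for a test. The summed level of all 6 was 2824 to 3453 CPM in ChR2 wells and 761 to 3228 CPM in wild-type wells. The part of these markers in the results below was not tested.

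Few members differed over all 12 libraries, and more did once wild-type wells 2 and 5 were left out. That the balance of rises and falls turns between the fits was known from earlier results of these data. It was a reason for giving both fits, so the contrast is a description and was not tested. With 12 libraries, Elovl6 and Stard4 rose in the ChR2 line and Dhcr7, Scap, Ebp and Cyp51 fell, which makes 6 of 28 members (21.4%) at an adjusted p under 0.05, beside 28.1% of the 13168 genes tested. With 10 libraries the same 4 genes fell and 9 rose, namely Pmvk, Fdps, Sqle, Lss, Srebf2, Acly, Acaca, Elovl6 and Stard4. That is 13 of 28 (46.4%), beside 35.2% of the 13484 genes tested. By direction, the 2 rises over 12 libraries stand beside 14% of all genes that rose and the 4 falls beside 14.1% that fell. The 9 rises over 10 libraries stand beside 18.9% and the 4 falls beside 16.3%. The 2 rises over 12 libraries became 4 without wild-type well 2 or 5. The 9 rises over 10 libraries became 5 without ChR2 well 1, ChR2 well 5 or wild-type well 1, and 4 without wild-type well 3. In these bulk samples fewer cells of a type and less RNA per cell cannot be told apart. No test set the members against other genes, so nothing is claimed as particular to them.

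All changes of members were smaller than 2-fold. The fitted log2 fold changes, ChR2 over wild type, spanned -0.84 to 0.50 over 12 libraries, with a median of 0.04 over the members and -0.02 over all genes tested. Over 10 libraries they spanned -0.91 to 0.55, with a median of 0.09 over the members and -0.00141 over all genes. The median size of the change, sign set aside, was 0.18 in members and 0.31 in all genes over 12 libraries, and 0.25 in members and 0.28 in all genes over 10 libraries. The median standard error (SE) of the members' log2 fold changes was 0.124 over 12 libraries and 0.0921 over 10. Between wells, the median coefficient of variation of the members was 7.33% in ChR2 wells, 18.2% in the 6 wild-type wells and 10.3% in wild-type wells 1, 3, 4 and 6. In limma fits on TPM, which differ in unit, scaling, test and filter, 0 members rose and 5 fell over 10 libraries, with 3 higher and 7 lower at an unadjusted p under 0.05, and 0 were called over 12 libraries, with 1 higher and 0 lower at that p. When the TPM were first rescaled between libraries, a step chosen after seeing the data, 6 members rose and 4 fell over 10 libraries, and 1 rose and 3 fell over 12.

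**Figure D1:**
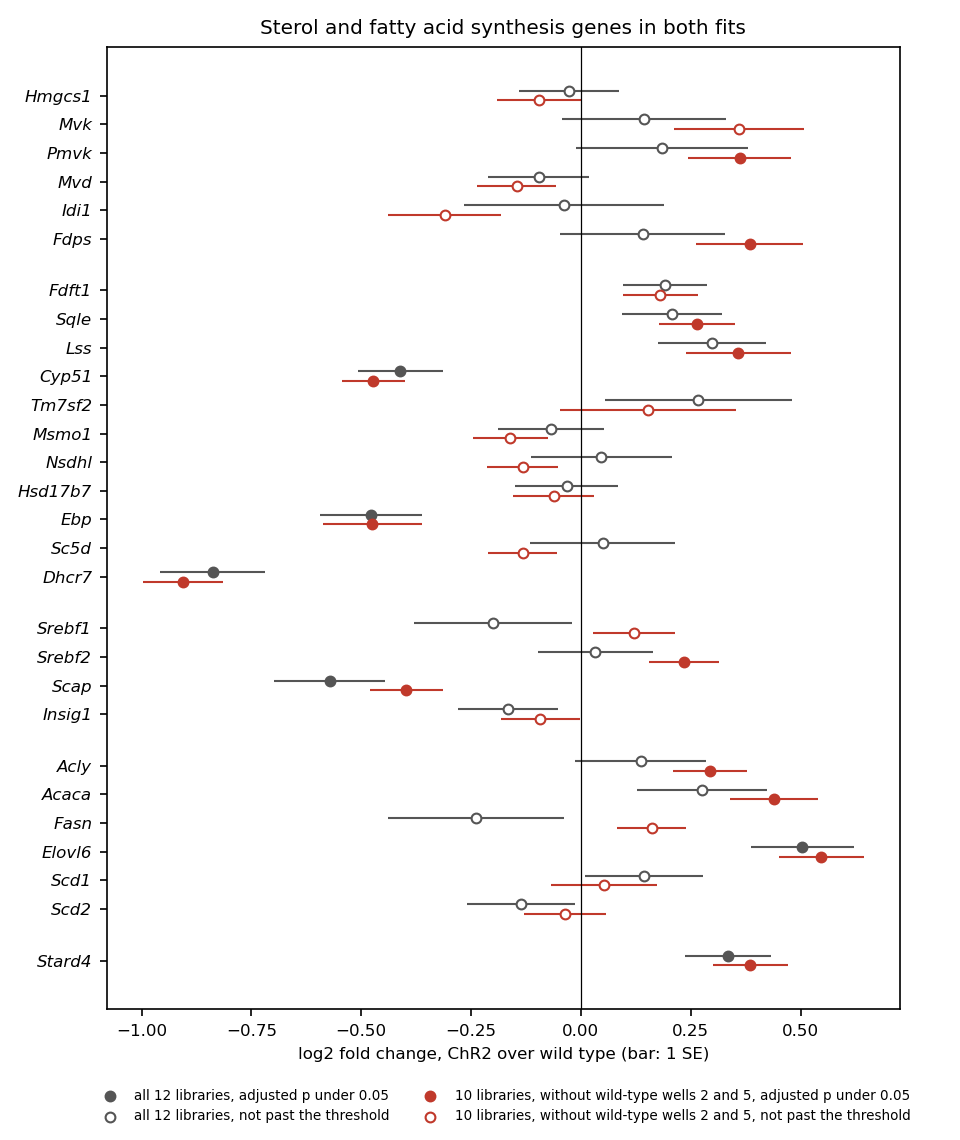
Log2 fold change of each member, ChR2 over wild type, with its standard error, in the fit of all 12 libraries (grey) and in the fit without wild-type wells 2 and 5 (red); filled points have an adjusted p under 0.05. Dhcr7, Ebp, Scap and Cyp51 lie left of 0 and Elovl6 and Stard4 right of 0 with filled points in both fits, while 7 further genes are filled in red only, all right of 0.

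The 6 members called over 12 libraries were also the 6 whose levels did not overlap between the 6 ChR2 and the 6 wild-type wells, 2 higher and 4 lower. Such separation was seen in 15.1% of all genes tested, 8.57% with the ChR2 wells higher and 6.52% with them lower. Against the 4 remaining wild-type wells, 6 members lay wholly above and 4 wholly below, 10 of 28, beside 25% of all genes (13.7% above, 11.2% below). Sqle, Srebf2, Acly and Acaca were the members that joined Elovl6 and Stard4 above.

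**Figure D2:**
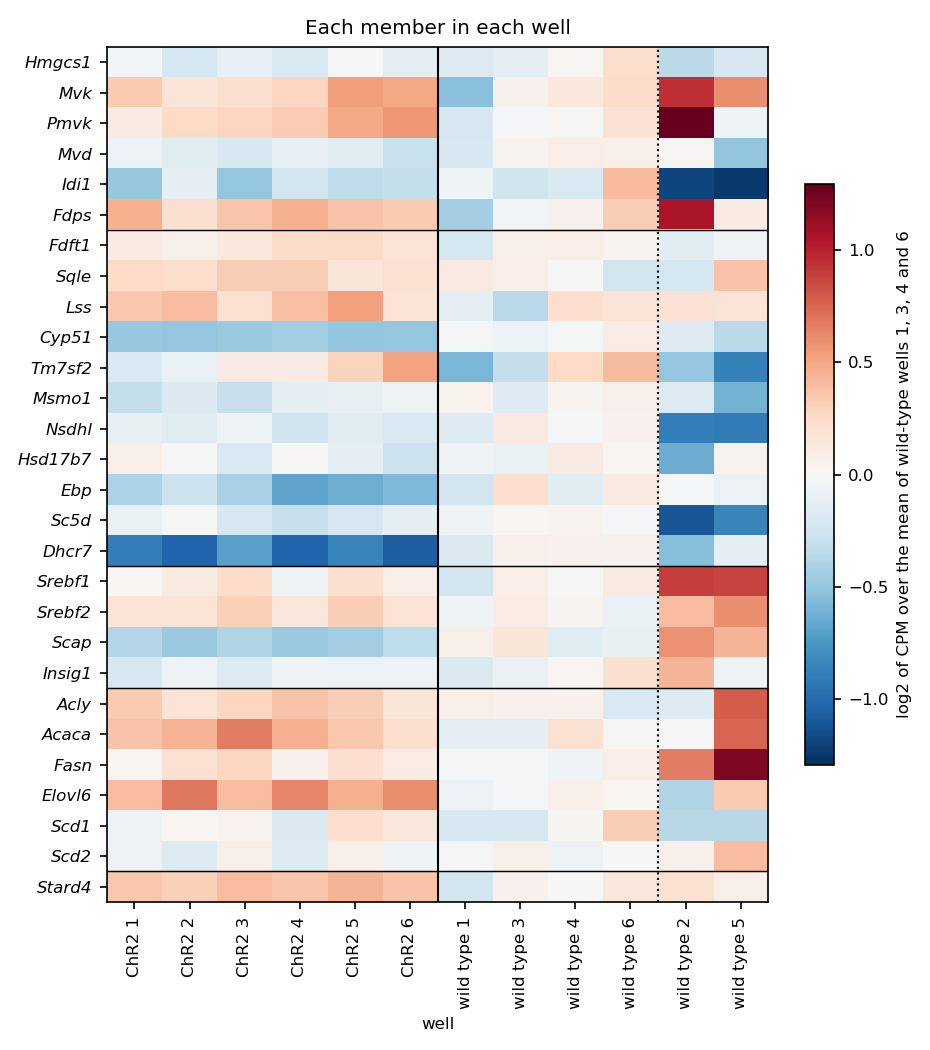
Level of each member in each well as the log2 ratio of its CPM to the mean of wild-type wells 1, 3, 4 and 6; rows are grouped by role, columns are wells, ChR2 on the left, wild-type wells 2 and 5 at the far right. The Dhcr7, Cyp51, Ebp and Scap rows are blue in every ChR2 well, and Idi1, Nsdhl and Sc5d are blue and Srebf1 and Fasn red in wild-type wells 2 and 5.

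Of the 11 squalene and sterol enzymes, 3 that act after lanosterol fell in both fits. Dhcr7 (ENSMUSG00000058454), the reductase that makes cholesterol from 7-dehydrocholesterol, lay at 44.0, 47.4 and 56.7 CPM (lowest, median, highest) in ChR2 wells, against 80.8, 96.4, 95.6 and 95.5 CPM in wild-type wells 1, 3, 4 and 6 and 62.9 and 84.2 CPM in wells 2 and 5. Every ChR2 well was below every wild-type well. The log2 fold change was -0.84 ± 0.12 (SE, adjusted p = 0.000274) over 12 libraries and -0.91 ± 0.09 (adjusted p = 2.05e-05) over 10, a ratio of 0.534 in the second fit. Cyp51 (ENSMUSG00000001467), the cytochrome P450 that demethylates lanosterol, lay at 124, 126 and 129 CPM in ChR2 wells, against 175, 168, 175 and 189 CPM in wild-type wells 1, 3, 4 and 6 and 157 and 138 CPM in wells 2 and 5. Its 6 ChR2 wells were close together, with a coefficient of variation of 1.37%, and all lay below the lowest wild-type well. The fitted log2 fold change was -0.41 ± 0.10 (adjusted p = 0.00642) over 12 libraries and -0.47 ± 0.07 (adjusted p = 0.000285) over 10. Ebp (ENSMUSG00000031168), the isomerase that shifts the ring double bond of sterol intermediates, lay at 22.3, 25.4 and 29.5 CPM in ChR2 wells, against 30.2, 41.5, 32.6 and 38.7 CPM in wild-type wells 1, 3, 4 and 6 and 35.4 and 33.9 CPM in wells 2 and 5. The highest ChR2 well and the lowest wild-type well, well 1, lay close together without crossing. In log2, the fold change was -0.48 ± 0.12 (adjusted p = 0.00749) over 12 libraries and -0.47 ± 0.11 (adjusted p = 0.00534) over 10. These 3 calls held when any single library was left out of either fit.

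Promoters of 7 members are shown because these genes stand for the patterns above: the 3 sterol enzymes that fell, Elovl6 and Lss among those that rose, Srebf2 as the gene of a factor that drives them, and Hmgcs1 as the member that holds a match to the sterol regulatory element. Each is the 250 bases upstream of an annotated start, read 5′ to 3′ on the gene's own strand, from RefSeq on GRCm38.p6. Capitals mark matches, on either strand, to the sterol regulatory element TCACNCCAC, the NF-Y box CCAAT and the E-box CACGTG; matches to the Sp1 box GGGCGG are left in lower case.
Dhcr7, chr7:143829964-143830213, plus strand: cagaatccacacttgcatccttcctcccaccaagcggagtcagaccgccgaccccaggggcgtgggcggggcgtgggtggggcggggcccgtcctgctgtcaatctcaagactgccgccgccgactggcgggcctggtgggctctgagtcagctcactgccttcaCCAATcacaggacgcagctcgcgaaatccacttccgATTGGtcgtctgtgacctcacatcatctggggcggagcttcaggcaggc
Cyp51, chr5:4104698-4104947, minus strand: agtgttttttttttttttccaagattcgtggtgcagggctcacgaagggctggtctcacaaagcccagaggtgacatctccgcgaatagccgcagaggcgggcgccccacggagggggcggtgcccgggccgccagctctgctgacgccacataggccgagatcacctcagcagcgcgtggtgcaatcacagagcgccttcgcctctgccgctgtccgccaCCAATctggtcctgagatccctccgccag
Ebp, chrX:8193513-8193762, minus strand: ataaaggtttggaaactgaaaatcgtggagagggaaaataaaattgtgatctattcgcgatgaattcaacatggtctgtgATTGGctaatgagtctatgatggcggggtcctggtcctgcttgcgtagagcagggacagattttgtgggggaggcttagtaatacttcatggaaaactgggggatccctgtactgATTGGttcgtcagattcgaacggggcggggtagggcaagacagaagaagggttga
Lss, chr10:76531355-76531604, plus strand: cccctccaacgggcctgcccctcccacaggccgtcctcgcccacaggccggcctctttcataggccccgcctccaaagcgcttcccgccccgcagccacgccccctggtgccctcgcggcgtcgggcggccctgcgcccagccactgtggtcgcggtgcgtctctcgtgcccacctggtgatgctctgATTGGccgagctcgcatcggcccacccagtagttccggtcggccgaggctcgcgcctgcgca
Srebf2, chr15:82147019-82147268, plus strand: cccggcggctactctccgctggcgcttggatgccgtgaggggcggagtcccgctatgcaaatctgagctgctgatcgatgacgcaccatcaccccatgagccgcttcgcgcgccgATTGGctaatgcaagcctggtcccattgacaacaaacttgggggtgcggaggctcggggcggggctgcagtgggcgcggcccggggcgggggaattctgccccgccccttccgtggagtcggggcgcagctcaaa
Elovl6, chr3:129532136-129532385, plus strand: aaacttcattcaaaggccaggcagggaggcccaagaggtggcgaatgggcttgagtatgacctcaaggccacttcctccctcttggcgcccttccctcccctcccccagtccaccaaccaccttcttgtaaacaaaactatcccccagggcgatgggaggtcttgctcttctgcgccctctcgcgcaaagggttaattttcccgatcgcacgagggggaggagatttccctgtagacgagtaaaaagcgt
Hmgcs1, chr13:119690101-119690350, plus strand: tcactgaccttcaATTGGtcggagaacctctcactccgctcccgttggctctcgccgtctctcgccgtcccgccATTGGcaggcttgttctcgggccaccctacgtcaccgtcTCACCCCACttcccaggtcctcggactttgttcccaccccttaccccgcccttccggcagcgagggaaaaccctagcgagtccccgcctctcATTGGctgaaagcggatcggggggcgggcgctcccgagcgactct
For Dhcr7, the window shown is the 1 of its 3 entries that holds CCAAT. For Hmgcs1 and Lss, the bases after the start were not found in an annotated transcript of the gene. The strand and start of these windows therefore rest on the promoter source only.

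The promoter table held 28 entries for 22 of the members, and none was used for Fdft1, Fdps, Scd1, Scd2, Sqle and Stard4. CCAAT occurred in 19 of the 28 entries (67.9%), beside 33.8% of all 32817 promoters searched over the same length. The Sp1 box GGGCGG occurred in 20 of the 28 entries (71.4%), beside 32.7% of all promoters. CACGTG occurred in 5 entries and in 6.02% of all promoters, and TCACNCCAC in 1 entry, that of Hmgcs1, and in 1.05% of all promoters. Called members were found on both sides: Cyp51, Ebp, Lss and Srebf2 have CCAAT, as do 1 of the 3 entries of Dhcr7 and 1 of the 2 of Pmvk, while Scap, Acly, Acaca and Elovl6 have it in none of their entries. A match is a run of letters, not a measured binding site. The promoters searched were not limited to genes expressed here and were not matched for base content. No excess is therefore claimed as particular to the members.

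Of the other 8 sterol enzymes, 2 rose over 10 libraries and the others passed neither threshold. Sqle, squalene epoxidase, lay at 149, 158 and 166 CPM in ChR2 wells, against 146, 142, 134 and 113 CPM in wild-type wells 1, 3, 4 and 6 and 114 and 173 CPM in wells 2 and 5. Well 5 was the highest of all, so that the lines overlapped only through it. Its log2 fold change was 0.21 ± 0.11 (adjusted p = 0.185) over 12 libraries and 0.26 ± 0.09 (adjusted p = 0.0270) over 10. Lss, lanosterol synthase, which closes the sterol rings, lay at 32.4, 37.0 and 41.5 CPM in ChR2 wells, against 26.6, 22.5, 33.4 and 32.3 CPM in wild-type wells 1, 3, 4 and 6 and 32.8 and 32.1 CPM in wells 2 and 5. Its lines overlapped narrowly, with wild-type wells 1 and 3 lowest. The log2 fold change was 0.30 ± 0.12 (adjusted p = 0.0798) over 12 libraries and 0.36 ± 0.12 (adjusted p = 0.0319) over 10. Both calls changed when single wells were left out. Over 10 libraries, Sqle lost its call without ChR2 well 1 (adjusted p = 0.0533) or 3 (0.0501), or without wild-type well 3 (0.0509), 4 (0.0501) or 6 (0.0793). Lss lost its call without ChR2 well 1 (0.0622), 2 (0.0562), 4 (0.0546) or 5 (0.0828), or without wild-type well 1 (0.0926) or 3 (0.134).

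The 6 sterol enzymes with no call had adjusted p between 0.115 and 0.869 across both fits. Fdft1, squalene synthase, averaged 92.8 ± 4.67 CPM in ChR2 wells and 82.8 ± 8.16 CPM in wild-type wells 1, 3, 4 and 6 (SD), with a log2 fold change of 0.19 ± 0.10 over 12 libraries and 0.18 ± 0.09 over 10. Tm7sf2, a sterol reductase that acts after Cyp51, was the least abundant in CPM, with 12.2 ± 2.23 CPM in ChR2 wells and 11.1 ± 3.49 CPM in those wild-type wells, and its log2 fold change was 0.27 ± 0.21 over 12 libraries and 0.15 ± 0.20 over 10. Its wells varied more than those of most members in both lines. Msmo1, Nsdhl and Hsd17b7 together strip the methyl groups next to the sterol hydroxyl. Msmo1 averaged 125 ± 9.02 CPM in ChR2 wells and 142 ± 10.5 CPM in wild-type wells 1, 3, 4 and 6. Nsdhl averaged 50.5 ± 2.50 CPM in ChR2 wells and 55.9 ± 4.77 CPM in those wild-type wells, and Hsd17b7 34.8 ± 3.28 CPM in ChR2 wells and 36.7 ± 2.26 CPM in those wild-type wells. For Msmo1, Nsdhl and Hsd17b7 the log2 fold changes were -0.07 ± 0.12, 0.05 ± 0.16 and -0.03 ± 0.12 over 12 libraries and -0.16 ± 0.09, -0.13 ± 0.08 and -0.06 ± 0.09 over 10. Sc5d, the desaturase before Dhcr7, averaged 45.9 ± 3.43 CPM in ChR2 wells and 50.9 ± 1.54 CPM in wild-type wells 1, 3, 4 and 6, with 23.6 and 28.2 CPM in wells 2 and 5. Nsdhl, at 30.1 and 30.0 CPM in wells 2 and 5, and Sc5d were lower in those wells than in every other well of either line, and their fitted change was 0.05 ± 0.16 and 0.05 ± 0.16 over 12 libraries against -0.13 ± 0.08 and -0.13 ± 0.08 over 10.

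None of the 6 mevalonate and isoprenoid enzymes passed edgeR's quasi-likelihood test over 12 libraries, nor was any under an unadjusted p of 0.05; over 10 libraries Pmvk and Fdps rose. With voom quality weights Pmvk and Fdps rose over 12 libraries as well, and in DESeq2's Wald test Idi1 also passed over 10 libraries, as a fall. Pmvk, phosphomevalonate kinase, lay at 19.6, 22.4 and 26.8 CPM in ChR2 wells, against 15.7, 17.96, 18.4 and 20.8 CPM in wild-type wells 1, 3, 4 and 6 and 44.6 and 17.5 CPM in wells 2 and 5. Well 2 was far above all others and the lines otherwise overlapped by a single wild-type well, well 6. The fitted log2 fold change was 0.18 ± 0.20 (adjusted p = 0.517) over 12 libraries and 0.36 ± 0.12 (adjusted p = 0.0278) over 10, and 0.0280 was its adjusted p when wild-type well 2 alone was left out. Fdps, farnesyl diphosphate synthase, which makes the precursor of both squalene and prenyl groups, lay at 154, 172 and 184 CPM in ChR2 wells, against 98.7, 130.3, 138 and 167 CPM in wild-type wells 1, 3, 4 and 6 and 277 and 144 CPM in wells 2 and 5. Well 2 was again the highest of all wells and well 1 the lowest. In log2, the fold change was 0.14 ± 0.19 (adjusted p = 0.616) over 12 libraries, 0.38 ± 0.12 (adjusted p = 0.0252) over 10, and its adjusted p was 0.0384 without wild-type well 2 alone. The 10-library call of Pmvk was lost without ChR2 well 5 (adjusted p = 0.0657) or 6 (0.0641), or without wild-type well 1 (0.0979) or 3 (0.0769). That of Fdps was lost without ChR2 well 1 (0.0577) or 5 (0.0509), or without wild-type well 1 (0.0815) or 3 (0.0754).

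The remaining 4 enzymes of these steps were not called in either fit. Hmgcs1, which joins acetoacetyl-CoA and acetyl-CoA and whose promoter above holds the sterol regulatory element, lay at 248, 270.2 and 291 CPM in ChR2 wells, against 257, 269, 297 and 341 CPM in wild-type wells 1, 3, 4 and 6 and 228 and 252 CPM in wells 2 and 5. All ChR2 wells lay within the range of the wild-type wells, with a log2 fold change of -0.03 ± 0.11 (adjusted p = 0.890) over 12 libraries and -0.09 ± 0.10 (adjusted p = 0.473) over 10. Idi1, the isomerase of the isoprenoid unit, lay at 157, 179 and 206 CPM in ChR2 wells, against 215, 187, 195 and 296 CPM in wild-type wells 1, 3, 4 and 6 and 98.3 and 94.2 CPM in wells 2 and 5. It had a high wild-type well, well 6, and was lowest in wells 2 and 5. Over 12 libraries the log2 fold change of Idi1 was -0.04 ± 0.23 (adjusted p = 0.924). Its log2 fold change of -0.31 ± 0.13 over 10 libraries had an adjusted p of 0.0754, which was 0.0363 without wild-type well 3 and 0.0490 without wild-type well 4. Mvk, mevalonate kinase, averaged 16.4 ± 1.76 CPM in ChR2 wells and 13.0 ± 2.80 CPM in wild-type wells 1, 3, 4 and 6. For Mvk the log2 fold change was 0.14 ± 0.19 (adjusted p = 0.604) over 12 libraries. Its log2 fold change of 0.36 ± 0.15 over 10 libraries had an adjusted p of 0.0736, and 0.0340 without wild-type well 6. Mvd, which makes isopentenyl diphosphate, averaged 29.0 ± 1.48 CPM in ChR2 wells and 32.4 ± 2.97 CPM in wild-type wells 1, 3, 4 and 6, with a log2 fold change of -0.10 ± 0.11 (adjusted p = 0.567) over 12 libraries and -0.15 ± 0.09 (adjusted p = 0.221) over 10.

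In the SREBP system, Scap fell in both fits and Srebf2 rose over 10 libraries. Scap (ENSMUSG00000032485), the sterol-sensing escort of the SREBP precursors, lay at 34.9, 36.6 and 38.8 CPM in ChR2 wells, against 51.3, 54.2, 43.8 and 45.7 CPM in wild-type wells 1, 3, 4 and 6 and 73.4 and 66.0 CPM in wells 2 and 5. All 6 ChR2 wells were below all 6 wild-type wells, and wells 2 and 5 were the highest. Its log2 fold change was -0.57 ± 0.13 (adjusted p = 0.00428) over 12 libraries and -0.40 ± 0.08 (adjusted p = 0.00259) over 10, and no single library ended the call. Srebf2, which encodes the factor that chiefly drives sterol enzymes, lay at 276, 283 and 311 CPM in ChR2 wells, against 240.4, 268, 257 and 236 CPM in wild-type wells 1, 3, 4 and 6 and 330.3 and 380.0 CPM in wells 2 and 5. Every ChR2 well lay above those 4 wild-type wells and every ChR2 well lay below wells 2 and 5. The log2 fold change was accordingly 0.03 ± 0.13 (adjusted p = 0.880) over 12 libraries and 0.23 ± 0.08 (adjusted p = 0.0343) over 10. The 10-library call was lost in 8 of the 10 fits that left out another library, and stood without ChR2 well 2 or 4; the adjusted p in the 8 were 0.0611, 0.0631, 0.0960 and 0.0569 without ChR2 wells 1, 3, 5 and 6, and 0.116, 0.0584, 0.0508 and 0.0793 without wild-type wells 1, 3, 4 and 6. It was also lost with DESeq2's size factors, with no filter, with voom quality weights, with a block for replicate number and in every TPM fit. Of 20 other settings, left-out libraries included, 4 kept the call.

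Srebf1, whose product drives fatty acid enzymes, lay at 44.1, 49.0 and 54.1 CPM in ChR2 wells, against 38.7, 48.7, 46.3 and 49.4 CPM in wild-type wells 1, 3, 4 and 6 and 85.2 and 83.8 CPM in wells 2 and 5. The ChR2 wells overlapped the 4 wild-type wells and lay wholly below wells 2 and 5. The fitted log2 fold change was -0.20 ± 0.18 (adjusted p = 0.433) over 12 libraries and 0.12 ± 0.09 (adjusted p = 0.333) over 10. Insig1, the retention factor and itself a known SREBP target, averaged 81.4 ± 3.84 CPM in ChR2 wells and 87.7 ± 10.6 CPM in wild-type wells 1, 3, 4 and 6, with a log2 fold change of -0.17 ± 0.11 (adjusted p = 0.292) over 12 libraries and -0.09 ± 0.09 (adjusted p = 0.450) over 10.

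**Figure D3:**
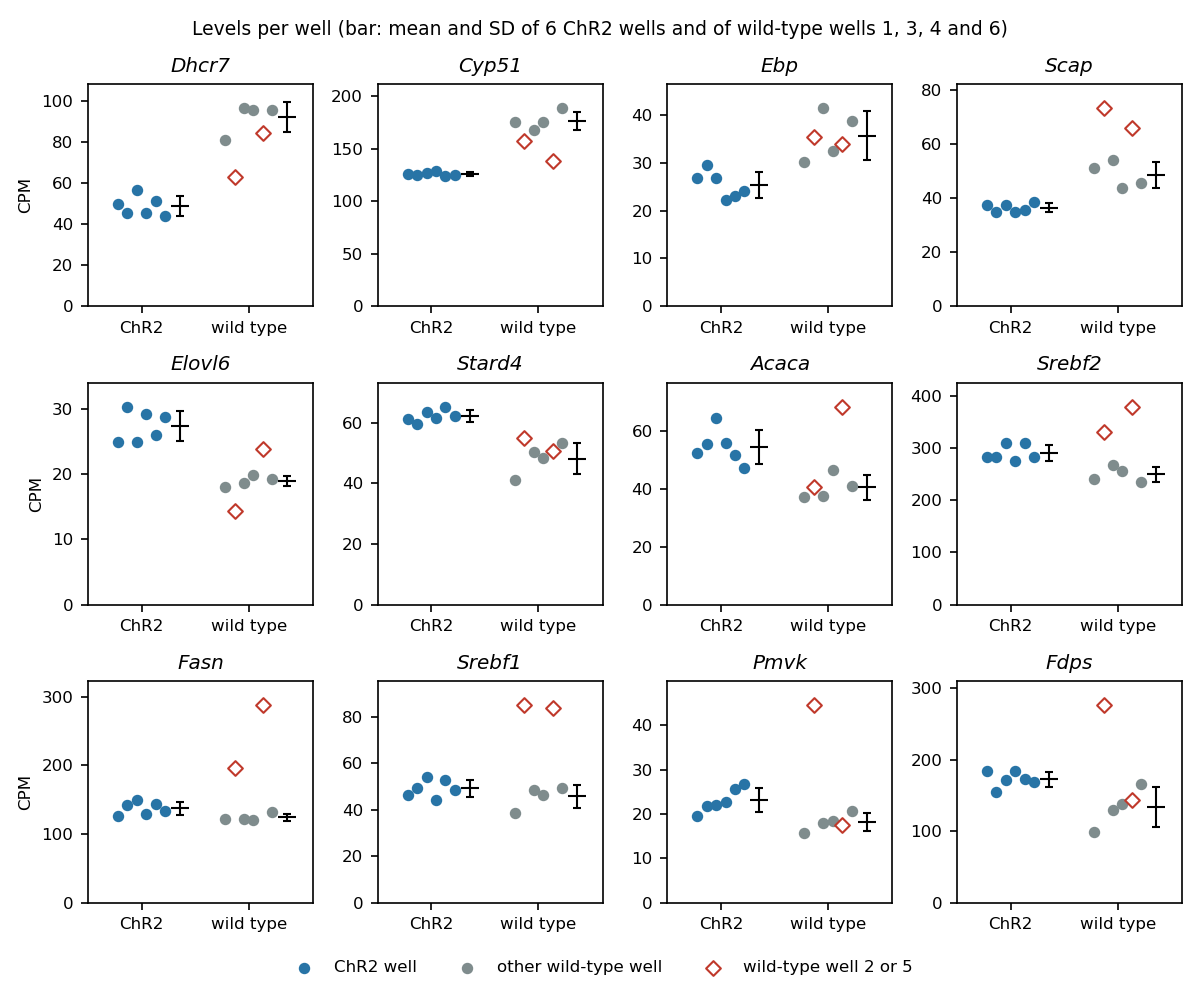
CPM per well of 12 members, ChR2 wells at left and wild-type wells at right in each panel; open red diamonds are wild-type wells 2 and 5, and the bars give the mean and SD of the 6 ChR2 wells and of wild-type wells 1, 3, 4 and 6. In the Dhcr7, Cyp51, Ebp and Scap panels every ChR2 point lies below every wild-type point, in the Srebf2 panel the ChR2 points lie between the 4 wild-type wells and the diamonds, and in the Fasn panel the diamonds at 197 and 288 CPM lie above all other points.

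Among the fatty acid enzymes, Elovl6 rose in both fits, and Acly and Acaca rose over 10 libraries. None fell in edgeR's test, nor was any lower at an unadjusted p under 0.05 in either fit or called lower by DESeq2's Wald test. Elovl6 (ENSMUSG00000041220), which lengthens palmitate towards stearate, lay at 24.9, 27.4 and 30.4 CPM in ChR2 wells, against 18.004, 18.7, 19.9 and 19.2 CPM in wild-type wells 1, 3, 4 and 6 and 14.4 and 23.9 CPM in wells 2 and 5. Every ChR2 well was above every wild-type well, the nearest being wild-type well 5. In log2, the fold change was 0.50 ± 0.12 (adjusted p = 0.00607) over 12 libraries and 0.55 ± 0.10 (adjusted p = 0.000832) over 10. Acaca, acetyl-CoA carboxylase, which makes the malonyl-CoA that fatty acid synthase uses, lay at 47.3, 54.0 and 64.5 CPM in ChR2 wells, against 37.4, 37.5, 46.6 and 41.0 CPM in wild-type wells 1, 3, 4 and 6 and 40.6 and 68.5 CPM in wells 2 and 5. Well 5 was above every ChR2 well, and the other wild-type wells were below them all. Its log2 fold change was 0.27 ± 0.15 (adjusted p = 0.178) over 12 libraries, 0.44 ± 0.10 (adjusted p = 0.00430) over 10, and its adjusted p was 0.00942 when well 5 alone was left out. Acly, which splits citrate into cytosolic acetyl-CoA for both pathways, lay at 104, 115 and 121 CPM in ChR2 wells, against 98.4, 97.1, 97.2 and 81.4 CPM in wild-type wells 1, 3, 4 and 6 and 82.6 and 161 CPM in wells 2 and 5. It showed the same split, with well 5 highest of all and every other wild-type well below the ChR2 wells. The fitted log2 fold change was 0.14 ± 0.15 (adjusted p = 0.532) over 12 libraries, 0.29 ± 0.08 (adjusted p = 0.0145) over 10, and its adjusted p was 0.0309 without well 5 alone. Over 10 libraries the calls of Elovl6, Acaca and Acly held without any 1 further library. That of Acly was lost in edgeR's test with no filter on low counts (adjusted p = 0.0628).

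Fasn, fatty acid synthase, lay at 127, 138 and 149 CPM in ChR2 wells, against 122, 123, 120.3 and 132 CPM in wild-type wells 1, 3, 4 and 6 and 197 and 288 CPM in wells 2 and 5. Wells 2 and 5 were the highest of all wells, and the sign of its fitted change followed them, with -0.24 ± 0.20 (adjusted p = 0.399) over 12 libraries and 0.16 ± 0.08 (adjusted p = 0.126) over 10. The stearoyl-CoA desaturases Scd1 and Scd2, which make monounsaturated fatty acids, were abundant and not called. Scd1 averaged 351 ± 34.9 CPM in ChR2 wells and 342 ± 62.1 CPM in wild-type wells 1, 3, 4 and 6, with a log2 fold change of 0.14 ± 0.13 (adjusted p = 0.456) over 12 libraries and 0.05 ± 0.12 (adjusted p = 0.773) over 10. Scd2 averaged 662 ± 52.8 CPM in ChR2 wells and 686 ± 29.8 CPM in wild-type wells 1, 3, 4 and 6, with a log2 fold change of -0.14 ± 0.12 (adjusted p = 0.433) over 12 libraries and -0.04 ± 0.09 (adjusted p = 0.802) over 10.

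Stard4 (ENSMUSG00000024378), a soluble carrier that moves cholesterol between membranes, rose in both fits. It lay at 59.5, 62.0 and 65.3 CPM in ChR2 wells, against 41.0, 50.2, 48.2 and 53.2 CPM in wild-type wells 1, 3, 4 and 6 and 55.0 and 50.7 CPM in wells 2 and 5. All ChR2 wells were above all wild-type wells. The log2 fold change was 0.33 ± 0.10 (adjusted p = 0.0189) over 12 libraries and 0.39 ± 0.09 (adjusted p = 0.00363) over 10, and no single library ended the call.

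Levels were also summed over each role. The 11 squalene and sterol enzymes summed to 750.0, 756 and 766 CPM (lowest, median, highest) in ChR2 wells, against 817, 852 and 864 CPM in wild-type wells 1, 3, 4 and 6 and 688 and 737 CPM in wells 2 and 5. The ChR2 wells lay between the 2 kinds of wild-type well. The mean sums were 757 CPM in ChR2 wells and 846 CPM in the 4 wild-type wells, and Cyp51 and Dhcr7 together made up that gap. Cyp51 averaged 126 CPM in ChR2 wells and 177 CPM in the 4 wild-type wells, and Dhcr7 48.6 and 92.1 CPM. Of the 11 enzymes, 4 had a positive log2 fold change over 10 libraries, so the sum does not show a fall of the whole role. The 4 SREBP system genes summed to 440.1, 452 and 483 CPM in ChR2 wells, against 408, 434 and 453 CPM in those 4 wild-type wells and 608 and 614 CPM in wells 2 and 5. Here the lines overlapped and wells 2 and 5 stood far above. The mevalonate enzymes summed to 665 to 715 CPM in ChR2 wells, against 623 to 874 CPM in the 4 wild-type wells and 705 and 550.2 CPM in wells 2 and 5. The fatty acid enzymes summed to 1243 to 1461 CPM in ChR2 wells, against 1249.7 to 1389.7 CPM in the 4 wild-type wells and 1317 and 1714 CPM in wells 2 and 5. In both roles the ChR2 wells overlapped the 4 wild-type wells, while well 5 lay below every other well for the mevalonate enzymes and above every other well for the fatty acid enzymes.

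**Figure D4:**
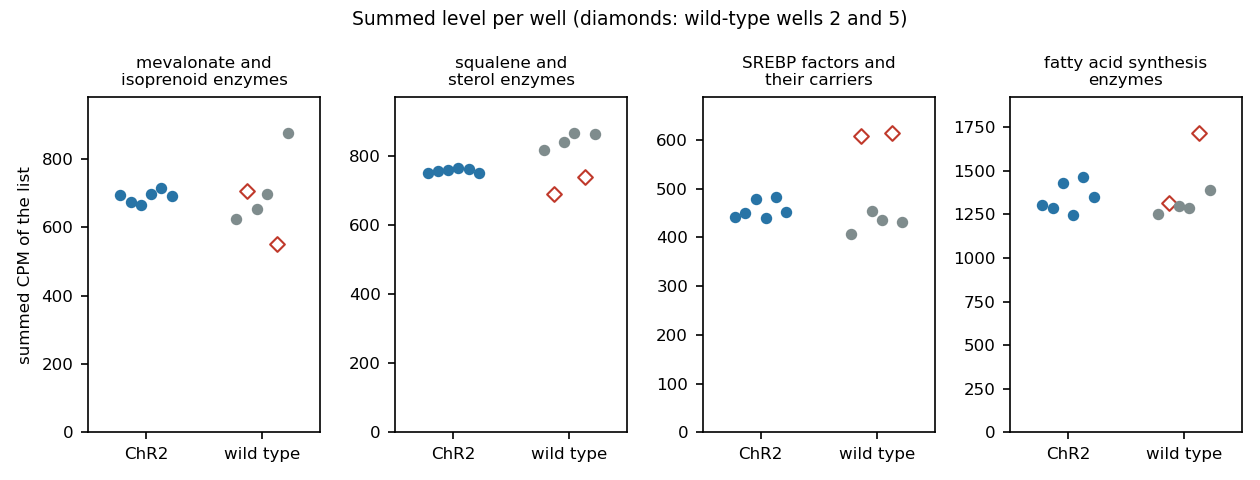
Summed CPM per well of the genes in 4 roles, ChR2 wells at left and wild-type wells at right in each panel, with wild-type wells 2 and 5 as open red diamonds. For the squalene and sterol enzymes the ChR2 wells, at 750.0 to 766 CPM, lie below the other wild-type wells and above the diamonds; for the SREBP system the diamonds lie above all other wells.

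Wild-type wells 2 and 5 did not shift all members one way. The mean of these wells over the mean of the other wild-type wells, as a log2 ratio, was 0.96 for Fasn, 0.88 for Srebf1, 0.78 for Mvk, 0.77 for Pmvk and 0.66 for Fdps. It was -1.21 for Idi1, -0.98 for Sc5d, -0.90 for Nsdhl and -0.67 for Tm7sf2. The ratios of Pmvk and Fdps rest chiefly on well 2, at 44.6 and 277 CPM. In well 5, at 17.5 and 144 CPM, both lay within the range of the other wild-type wells. Tm7sf2 in well 2, at 7.86 CPM, was above wild-type well 1, at 7.38 CPM. Wells 2 and 5 are the 2 libraries with the least depth, and the part of their RNA content in the values was not tested.

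Between genes, levels were compared per length as TPM in the ChR2 wells and in wild-type wells 1, 3, 4 and 6; in wells 2 and 5 the 7SL RNAs took 720002 and 508237 TPM. Fdps was the most abundant member in the ChR2 wells, with 206 ± 22.9 TPM in ChR2 wells and 167 ± 26.6 TPM in the 4 wild-type wells. Scd2 had 160.3 ± 22.6 TPM in ChR2 wells and 174 ± 14.7 TPM in the 4 wild-type wells, so that Fdps was the higher of these 2 genes in ChR2 wells, and in the wild-type wells they did not differ beyond their spread. Hmgcs1 followed with 118 ± 14.0 TPM in ChR2 wells and 134 ± 7.54 TPM in the 4 wild-type wells, and Scd1 with 103 ± 13.1 TPM in ChR2 wells and 107 ± 13.7 TPM in the 4 wild-type wells. Idi1 at 96.7 ± 7.26 TPM and Srebf2 at 96.4 ± 12.7 TPM in ChR2 wells did not differ beyond their spread. Dhcr7 had 29.3 ± 5.57 TPM in ChR2 wells and 58.0 ± 7.36 TPM in the 4 wild-type wells. Elovl6 was the lowest member in both lines, with 6.27 ± 0.547 TPM in ChR2 wells and 4.82 ± 0.247 TPM in the 4 wild-type wells.

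Some members share sequence or exons with other loci, and the sources used here do not say whether the counting used strand. Acaca shares 52.6% of the 50-base windows of its longest transcript with Gm5182, which averaged 5.51 ± 1.04 CPM in ChR2 wells and 3.87 ± 0.753 CPM in wild-type wells 1, 3, 4 and 6, so the split of reads between these loci is uncertain. Fdps shares 11.7% of such windows and Idi1 30.5%, chiefly with Gm43738 for Fdps and Gm13502 for Idi1, loci not analysed here, and the values of both are uncertain on that account. Exons of Scap overlap 5830462I19Rik on the other strand over 985 bases (13.2%). That locus averaged 0.0170 CPM in ChR2 wells and 0.0455 CPM in wild-type wells 1, 3, 4 and 6. Exons of Cyp51 overlap Akap9 on the other strand over 166 bases (3.76%), and Akap9 was not called in either fit. Fdft1 shares 30.7% of its windows, chiefly with Ctsb (19.9%) and next with Gm6781, a locus not analysed here. Its values are uncertain on that account too. Exons of Fdft1 overlap Ctsb on the other strand over 774 bases. Ctsb, at 417 ± 29.8 CPM in ChR2 wells and 447 ± 61.5 CPM in the 4 wild-type wells, was not called. Tm7sf2 overlaps Vps51 on the same strand over 532 bases, Hmgcs1 shares 13.6% of its windows with Gm48342, which was at 0 CPM, Scd1 shares 4.66%, chiefly with Scd3, and Scd2 shares 4.01%, chiefly with Scd1.

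Beyond the members, 52 further genes of the same network were read, of which 48 were tested. Over 12 libraries 11 rose and 5 fell (33.3% of those tested), beside 28.1% of all genes tested. Over 10 libraries 12 rose and 6 fell (37.5%), beside 35.2% of all genes. By direction, 14% of all genes rose and 14.1% fell over 12 libraries, and 18.9% rose and 16.3% fell over 10. The same shares stand beside the counts of each list below, and no test set these genes against others. Of 8 genes of SREBP cleavage and sterol-sensing degradation, 2 rose and 1 fell over 12 libraries, and 3 rose and 2 fell over 10. Mbtps1, the protease that makes the first cut in SREBP precursors at the Golgi, averaged 104 ± 7.59 CPM in ChR2 wells and 75.2 ± 6.31 CPM in wild-type wells 1, 3, 4 and 6, with log2 fold changes of 0.47 ± 0.14 over 12 libraries (adjusted p = 0.0182) and 0.48 ± 0.09 over 10 (adjusted p = 0.000972). It rose where Scap fell. Erlin1, an endoplasmic reticulum protein of sterol-regulated degradation, rose by 0.48 ± 0.12 (log2, adjusted p = 0.0107) over 12 libraries and 0.40 ± 0.08 (0.00204) over 10. Rnf139, a ubiquitin ligase gene, fell over 10 libraries, with a log2 fold change of -0.36 ± 0.10 (adjusted p = 0.0102), against -0.15 ± 0.18 (0.565) over 12. Insig2 passed over 10 libraries, with 0.22 ± 0.08 (0.0449), but lost its call in 8 of the 10 fits that left out a further library, where the adjusted p reached 0.132 without wild-type well 3. Over 12 libraries its log2 fold change was 0.39 ± 0.15 (0.0639), and 0.0408 was the adjusted p without wild-type well 4.

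Of 11 genes of isoprenoid branches and electron donors, 2 rose and 2 fell in each fit. The subunits of protein farnesyltransferase went opposite ways. Fntb averaged 36.4 ± 3.10 CPM in ChR2 wells and 23.8 ± 4.19 CPM in wild-type wells 1, 3, 4 and 6, and rose by 0.68 ± 0.13 (adjusted p = 0.00154) over 12 libraries and 0.63 ± 0.12 (0.00112) over 10 on the log2 scale. Fnta, which also serves the enzyme that attaches geranylgeranyl groups, averaged 84.0 ± 8.57 CPM in ChR2 wells and 111 ± 5.90 CPM in those wild-type wells, with log2 fold changes of -0.61 ± 0.18 (0.0186) and -0.39 ± 0.09 (0.00503). Cyb5r3, the cytochrome b5 reductase that feeds electrons to desaturases and Sc5d, rose by 0.53 ± 0.15 (0.0169) and 0.39 ± 0.11 (0.0130). Por, the P450 reductase that serves Cyp51 and Sqle, had a log2 fold change of -0.76 ± 0.23 (0.0230) over 12 libraries, with 0.0513 without wild-type well 5, and -0.32 ± 0.12 (0.0541) over 10. The 10-library value passed without ChR2 well 1 (0.0488) or wild-type well 4 (0.0239) or 6 (0.0123). Ggps1, which makes geranylgeranyl diphosphate, had -0.36 ± 0.13 (0.0453) over 10 libraries, a call lost in 8 of 10 fits that left out a library, up to 0.143 when wild-type well 1 was missing, and -0.22 ± 0.19 (0.432) over 12.

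Of 15 genes of sterol uptake, storage and efflux, 12 were tested; 4 rose and 1 fell over 12 libraries, and 3 rose and 1 fell over 10. Tmem97, an endoplasmic reticulum sterol-binding protein, averaged 40.5 ± 3.91 CPM in ChR2 wells and 27.4 ± 5.96 CPM in wild-type wells 1, 3, 4 and 6, with log2 fold changes of 0.70 ± 0.17 (adjusted p = 0.00845) over 12 libraries and 0.58 ± 0.13 (0.00411) over 10. Npc2, the lysosomal cholesterol carrier, averaged 262 ± 26.0 CPM in ChR2 wells and 190.0 ± 24.3 CPM in those wild-type wells, with 0.55 ± 0.12 (0.00438) and 0.48 ± 0.11 (0.00352). Both rose in both fits. Stard3, a late endosomal sterol carrier related to Stard4, fell in both fits, with -0.61 ± 0.16 (0.0121) and -0.42 ± 0.12 (0.0113), the direction opposite to that of Stard4. Ch25h, which makes an oxysterol that blocks SREBP processing, was at 2.34, 3.56 and 5.62 CPM in ChR2 wells, against 1.08, 1.11, 3.99 and 1.47 CPM in wild-type wells 1, 3, 4 and 6 and 0 and 1.78 CPM in wells 2 and 5. Its log2 fold change of 1.06 ± 0.38 (adjusted p = 0.0485) over 12 libraries passed narrowly and 1.01 ± 0.38 (0.0562) over 10 did not. Its call over 12 libraries was lost in 9 of the 12 fits that left out a library, up to 0.111 when wild-type well 3 was missing, and over 10 libraries it was gained without ChR2 well 5 (0.0459) or wild-type well 4 (0.00198).

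Of 18 genes of lipogenic supply, elongation and glycerolipid synthesis, 17 were tested; 3 rose and 1 fell over 12 libraries, and 4 rose and 1 fell over 10. The fatty acid desaturases of polyunsaturated fats, Fads1 and Fads2, both rose in both fits. Fads1 averaged 88.3 ± 6.62 CPM in ChR2 wells and 55.0 ± 4.79 CPM in wild-type wells 1, 3, 4 and 6, with log2 fold changes of 0.72 ± 0.11 (adjusted p = 0.000430) over 12 libraries and 0.70 ± 0.09 (8.63e-05) over 10. Fads2 averaged 75.7 ± 7.64 CPM in ChR2 wells and 44.1 ± 7.36 CPM in those wild-type wells, with 0.78 ± 0.16 (0.00328) and 0.80 ± 0.12 (0.000210). Both changes were larger than that of Elovl6 in the same fits, and their difference from it was not tested. Slc25a1, the mitochondrial citrate carrier that supplies Acly, rose over 10 libraries, with 0.56 ± 0.13 (0.00371), against 0.33 ± 0.17 (0.164) over 12 and 0.0215 as its adjusted p once wild-type well 5 was left out. Gpam, the first acyltransferase of glycerolipid synthesis, fell in both fits, with -0.37 ± 0.11 (0.0220) and -0.26 ± 0.08 (0.0222). Its call was lost over 12 libraries without ChR2 well 2 (0.0508) and over 10 libraries without wild-type well 3 (0.0526) or 4 (0.0546).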

How the data were processed

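RNA was selected by poly(A) tail and sequenced as paired reads, per the labels' protocols, which add that samples with little RNA were ribodepleted without naming them. The authors deposited estimated counts per gene, of which 8.19% were not whole, and TPM for the same genes, both with gene symbols and identifiers. Salmon, STAR, BWA (0.7.12-r1039) and bedtools (2.25.0), and 3 builds, GRCm39, mm10 and hg19, are named in the submitters' processing notes; their roles, and the annotation and strand setting, are not given in the sources used here. The number of unused sample columns was 0.

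The deposited estimated counts were rounded, filtered by edgeR's filterByExpr (minimum count 10), scaled by TMM and tested with edgeR's quasi-likelihood test (robust; edgeR 4.0.16, R 4.3.3) with the line as the term. Benjamini-Hochberg adjustment ran over all genes tested, with a threshold of 0.05. The fit was made on all 12 libraries and, with filter and scaling recomputed, on the 10 without wild-type wells 2 and 5. CPM use the TMM-scaled library sizes of the 12-library fit, and the SE of a log2 fold change is its size over the square root of F. The deposited TPM served for levels between genes, and for limma 3.58.1 fits on log2(TPM + 1) and log2(TPM + 0.1), with genes kept at 1 TPM or more in 6 libraries. The scripts were tested on simulated data. Of simulated 1.5-fold changes, the 12-library fit called 18.2% in the right direction and the 10-library fit 45.5%. For 2-fold changes these shares were 61.5% and 80.6%. Far fewer genes were changed there than were called in the data, so these shares need not hold for the data. A member without a call may still have changed.

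Other settings were DESeq2 size factors, upper-quartile scaling, no filter, DESeq2's Wald test (1.42.0), voom with sample quality weights, the TPM fits, a replicate block, a covariate for wild-type wells 2 and 5, and each library left out; a rescaling of TPM was added after seeing the data. All members were named. Of the companion lists, genes called in either fit were named if among the 3 largest rises or falls of their list over 10 libraries. The result of 1 such gene is not reported here and stays in the counts. The members and lists were chosen with earlier results of these data known, including the turn in the balance of rises and falls between the fits. No pair of wells agreed within sampling noise (lowest chi-square per degree of freedom 5.09). Libraries were amplified by PCR and the labels mention no molecular identifiers, so precision from depth covers counting error only. No label says that a number is shared between the lines, so no pairing was used. Wells sharing a number did not deviate together. The deviations were taken from line means that include wild-type wells 2 and 5, so they cannot exclude a pairing. Promoters came from RefSeq on GRCm38.p6, matched by symbol for 22 of 28 members. All 28 entries were compared with annotated transcripts of the same gene by their bases after the start, and 22 matched. The entries of Hmgcs1, Lss, Nsdhl and Sc5d and some of those of Srebf1 did not match. Shared windows and exons were read from the reference transcripts and annotation. Figures were drawn with matplotlib 3.10.9.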

Additional observations from a re-analysis of the deposited data

Results flagged for a closer look

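Within each line, a well was singled out when its gap to the nearest other well exceeded 0.625 of the whole range of the 6 wells. Of 92 groups examined (46 genes in both lines), 10 were singled out, and chance alone does so in about 1 group in 20. The members concerned all had the distant well among wild-type wells 2 and 5. Pmvk was at 44.6 CPM in wild-type well 2, with the next well at 20.8 CPM. Hsd17b7 was at 23.6 CPM in wild-type well 2, with the next at 34.5 CPM. In wild-type well 5, Acly was at 161 CPM with the next well at 98.4 CPM, Acaca at 68.5 CPM with the next at 46.6 CPM, and Scd2 at 905 CPM with the next at 724 CPM. Among the companions, Erlin1 was at 19.7 CPM in wild-type well 2 with the next at 32.8 CPM, Fnta at 228 CPM in wild-type well 2 with the next at 117 CPM, and Gpam at 82.1 CPM in wild-type well 5 with the next at 64.9 CPM. In ChR2 well 2, Stard3 was at 17.95 CPM with the next well at 14.4 CPM, and Slc25a1 at 25.7 CPM with the next at 31.7 CPM. The part of depth in these values was not tested.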

How the results depend on the processing

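The falls of Dhcr7, Cyp51, Ebp and Scap and the rise of Elovl6 were called in both fits under every scaling, filter and count test. Stard4 was called in all of these but the unfiltered and blocked 12-library fits. The unscaled TPM fits over 12 libraries called none of these genes. On rescaled TPM over 12 libraries, Ebp and Elovl6 lost their calls. Over 10 libraries, Dhcr7 and Cyp51 were called in every TPM fit. Ebp and Scap lost their calls there only in the unfiltered TPM fit, and Elovl6 and Stard4 in every unscaled one. Over 12 libraries the number of members that rose, 2 as reported, was 1 with no filter, 1 on rescaled TPM, 4 with a term for wild-type wells 2 and 5, and 6 of 10 called with voom quality weights. Over 10 libraries the number that rose, 9 as reported, was 5 with no filter. In limma fits on unscaled TPM over 12 libraries, 0 members were called, 0 higher and 0 lower, with either pseudocount and with no filter; 1 or 2 were higher and 0 lower at an unadjusted p under 0.05. The same fits over 10 libraries called 5 members with either pseudocount, 0 of them higher, and 2 with no filter, 0 higher and 2 lower. Over 12 libraries, the median of all genes moved to 0.35 (pseudocount 1) and 0.43 (pseudocount 0.1) in these TPM fits, against -0.02 in counts, and relative to it the median of the members was 0.07 and 0.01, against 0.06 in counts. Over 12 libraries Cyp51 had a log2 fold change of 0.00361 on TPM + 1, with and without the filter, and 0.0122 on TPM + 0.1, and Gpam 0.00799 on TPM + 0.1, all reversed in sign. Over 10 libraries Srebf2 was reversed at -0.0396 on TPM + 1, with and without the filter, and -0.0400 on TPM + 0.1, and Insig2 at -0.0215 in all 3. On the rescaled TPM, 4 members were called over 12 libraries and 10 over 10. Why the unscaled TPM gave other calls was not tested.

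With a replicate block, 5 members were called over 12 libraries (1 higher, 4 lower) and 8 over 10 (4 higher, 4 lower). The correlations of same-numbered wells' deviations ran from -0.14 to 0.10, and only well 6 correlated best with its own number. Leaving out 1 library, the number of members that rose ranged from 2 to 4 over 12 libraries and from 4 to 8 over 10, and the number called from 6 to 8 and from 9 to 12. The 9 rises became 5 without ChR2 well 1, ChR2 well 5 or wild-type well 1, and 4 without wild-type well 3. Depth was lowest in wild-type wells 2 and 5, which limits the 12-library fit. For all 46 named genes, the settings other than left-out libraries were counted. Over 12 libraries 416 of 506 values stayed on the same side of the threshold, and 373 of 460 over 10. These include 49 and 8 values that missed the threshold and changed sign. They leave out the reversed values of called genes, 4 over 12 libraries and 6 over 10.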
